A study of Mus musculus with 6 samples.

Results

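The 61 genes described here had their highest signal in mouse epiblast stem cells (EpiSCs) after 1 day in a neural plate condition and a lower one after 2 days. They were chosen by measured values: the mean log2 signal after 1 day exceeded that of the starting EpiSCs by at least 1, and the mean after 2 days lay at least 1 below that of day 1, with signal well above background on both day 1 arrays. Of 14632 genes tested, out of 19981 with an NM accession on the array, 69 (0.472%) met both thresholds. The rule left 8 of these out by name (Stmn4, Cnn1, Actc1, Krt90, Cxcl1, Tagln, Elavl3 and Ltb), and the other 61 form the set. Since the rule used the changes on day 1 and on day 2, both are given as a description with no test. The comparison of day 2 with the starting cells is the only one tested for these genes: the rule fixes neither its sign nor its size, although the same arrays enter both.

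EpiSCs are pluripotent cells taken from the epiblast after implantation of the embryo. Cells of strain 129/Sv stayed in a condition that maintains epiblastic cells (EpiSC) or spent 1 day (NPC1) or 2 days (NPC2) in a condition for neural plate development. A and B are duplicate cultures of each group. All came from 1 seed culture, so the spread between duplicates may be no more than technical, and 100 ng RNA from each was labelled with Cy3 for 1 of 6 single-colour arrays, which shared 1 slide. No transgene or added agent is named in the labels. Signals are log2 processed intensities relative to the 75th percentile of their array, so a value of 0 is the brightness of that percentile, and levels of different genes, read by different probes, are not compared. Per array, 58.2% to 61.1% of 59305 non-control spots exceeded background clearly, and none (0 spots) was saturated. With 2 arrays a group the precision is limited; over all genes the standard error (SE) of a log2 difference had a median of 0.067. RNA was taken from whole cultures, so a change in the number of cells that express a gene and a change in RNA per cell cannot be told apart. Of 11 epiblast pluripotency markers, all were tested, and 8 were called lower and 2 (Nanog and Sox2) higher in NPC1 than in EpiSC. Of 17 neural plate markers, 11 were called higher in NPC1 and 16 in NPC2, and 1 (Zic5) was called lower in NPC2.

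Some genes induced by a signal rise for a time and are then shut off again by feedback. NF-kB, for example, is held in the cytoplasm by inhibitor proteins until a cytokine or stress signal releases it, and it then switches on chemokine genes together with the genes of its own inhibitors. The serum response factor SRF acts through the CArG box in promoters of contractile genes, and AP-1, a dimer of Fos and Jun proteins, acts in many immediate responses.

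Promoter windows of 8 of the genes are shown because they hold the motifs described further on and belong to genes whose values are given below. Each run is the 150 bases before the annotated start, read 5′ to 3′ on the gene's strand, from RefSeq on build GRCm38.p6. In the first set the capitals mark matches to the NF-kB motif. Madcam1 lies at chr10:79664409-79664558, plus strand. Padi2 lies at chr4:140906210-140906359, plus strand. Tm4sf1 lies at chr3:57301989-57302138, minus strand.
Madcam1: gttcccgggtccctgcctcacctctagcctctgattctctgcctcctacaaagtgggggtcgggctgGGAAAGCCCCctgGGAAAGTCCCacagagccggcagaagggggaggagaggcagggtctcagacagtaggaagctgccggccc
Padi2: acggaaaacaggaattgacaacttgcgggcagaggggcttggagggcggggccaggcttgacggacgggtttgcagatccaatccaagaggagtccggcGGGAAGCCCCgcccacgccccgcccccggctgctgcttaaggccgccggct
Tm4sf1: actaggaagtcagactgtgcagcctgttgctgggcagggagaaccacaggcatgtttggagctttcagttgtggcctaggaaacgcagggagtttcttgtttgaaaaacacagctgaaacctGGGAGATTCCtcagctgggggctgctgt

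In the second set the capitals mark the AP-1 motif and the TATA box in the windows of Padi4 and Sprr1a and the cyclic AMP response element (CRE) in that of Dusp8. Padi4 lies at chr4:140774204-140774353, minus strand. Sprr1a lies at chr3:92485882-92486031, minus strand. Dusp8 lies at chr7:142095285-142095434, minus strand.
Padi4: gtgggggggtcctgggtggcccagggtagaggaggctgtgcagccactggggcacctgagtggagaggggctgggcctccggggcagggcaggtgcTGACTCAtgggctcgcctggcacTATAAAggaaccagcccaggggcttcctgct
Sprr1a: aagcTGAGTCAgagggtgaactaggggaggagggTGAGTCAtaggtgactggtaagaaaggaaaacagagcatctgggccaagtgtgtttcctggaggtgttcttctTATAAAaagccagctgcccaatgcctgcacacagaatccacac
Dusp8: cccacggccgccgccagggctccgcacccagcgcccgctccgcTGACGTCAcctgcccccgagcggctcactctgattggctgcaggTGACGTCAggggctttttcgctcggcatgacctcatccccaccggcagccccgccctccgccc

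In the third set the capitals mark the CArG box. Myl3 lies at chr9:110763528-110763677, plus strand. Vil1 lies at chr1:74409234-74409383, plus strand.
Myl3: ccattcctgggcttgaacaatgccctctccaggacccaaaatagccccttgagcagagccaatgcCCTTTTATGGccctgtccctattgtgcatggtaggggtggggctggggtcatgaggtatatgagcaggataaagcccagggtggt
Vil1: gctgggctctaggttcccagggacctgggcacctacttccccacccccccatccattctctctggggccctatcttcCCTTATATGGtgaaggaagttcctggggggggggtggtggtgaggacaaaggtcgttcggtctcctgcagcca

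Over the 61 genes the day 1 rise had a median of 1.48 on the log2 scale and ran from 1.01 (Tmem35a) to 3.37 (Myl3). The day 2 fall had a median of -1.60 and ran from -1.0 (Egln3) to -3.73 (the gene with accession NM_008204, which has no symbol in the reference table). Across all genes tested the median change was -0.055 on day 1 and -0.043 on day 2. A rise of at least 1 on day 1 was seen in 699 genes (4.78%), and a fall of at least 1 on day 2 in 953 (6.51%). Of those 699 genes, 9.87% fell by the threshold on day 2, 219 rose by a further 1 or more and 411 stayed within 1 of their day 1 value. In the fit over all genes, 21.4% were called higher and 29.4% lower in NPC1 than in EpiSC, and 20.9% higher and 27% lower in NPC2 than in NPC1. The plot of the day 1 change against the day 2 change places the 61 genes in its lower right corner.

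**Figure D1:**
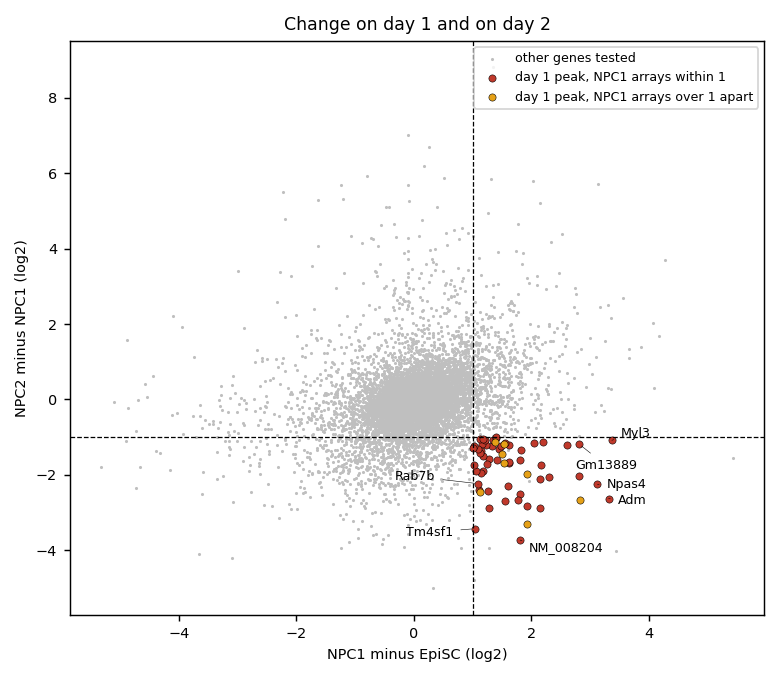
Each point is a gene, with NPC1 minus EpiSC (log2) on the x axis and NPC2 minus NPC1 (log2) on the y axis; the dashed lines are the thresholds of 1 and -1, and coloured points are the 61 genes. Adm and Npas4 lie far from both lines, while Myl3 lies far past the line of the rise and close to that of the fall.

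The thresholds cut through a continuous range of values. Just inside the rise were Tmem35a (1.01), Relb (1.02) and Slc27a2 (1.02), and just outside it Enpp2 (0.98), NM_145395 (0.96) and Kremen2 (0.95). Just inside the fall were Egln3 (-1.0), Plxna4 (-1.02) and Vil1 (-1.06), and just outside it Ankrd35 (-0.99), Syt7 (-0.99) and Stc1 (-0.98). The size of the set depended on the background correction: normexp with an offset of 50, which compresses the differences of dim probes, left 11 genes past the thresholds, all of them among the 61.

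The duplicate day 1 cultures did not show the peak alike for every gene. Of the 61 genes, 53 had NPC1 duplicates at most 0.52 apart, and in all 53 both NPC1 arrays stood above the other 4 arrays, an order found in 10.1% of all genes tested. The other 8 genes (Adhfe1, Olfr441, Slc35g3, Myoc, Cyp2e1, Foxj2, Siglecf and Hcrtr1) were higher in NPC1 B than in NPC1 A by 1.62 to 3.05. Between the A arrays their day 1 change ran from -0.43 to 1.00, and between the B arrays from 2.13 to 4.78. Among all genes tested, 73 were higher in NPC1 B than in A by over 1 and 60 higher in A than in B, but none (0) of the 61 was higher in A by that much. Counting the arrays of each letter alone, 46 of the 61 met both thresholds in A, 51 in B and 36 in each. Over all genes the shares were 0.547% in A and 0.601% in B. The rule used the means of these same arrays, so the counts are a description only.

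**Figure D2:**
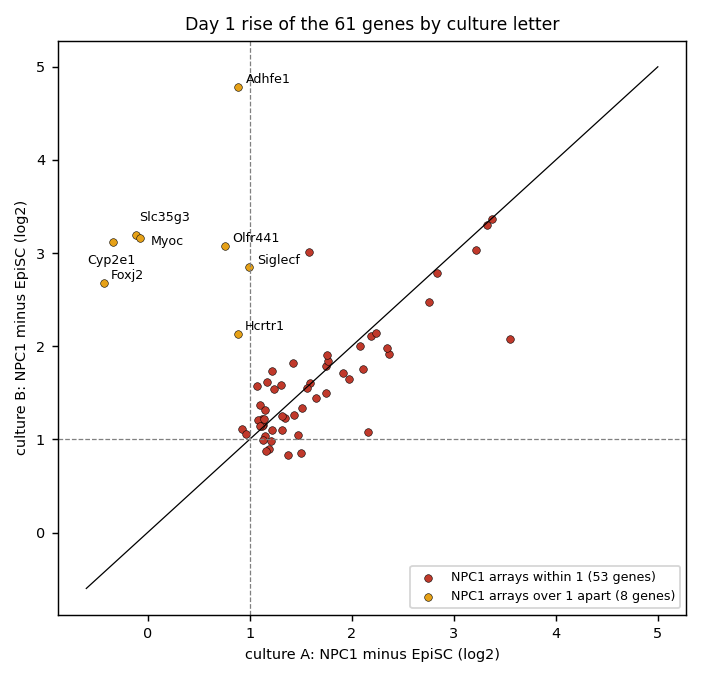
Each point is 1 of the 61 genes, with the day 1 change (NPC1 minus EpiSC, log2) between the A arrays on the x axis and between the B arrays on the y axis. A shared letter is not known to pair cultures. The diagonal marks equal values and the dashed lines the threshold of 1. The 8 labelled genes, in yellow, lie above the diagonal with values in A of 1.00 or less.

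Adhfe1, which encodes a mitochondrial alcohol dehydrogenase, shows the split between duplicates. It read -5.83 and -6.68 in EpiSC A and B, -4.94 and -1.89 in NPC1 and -6.17 and -5.99 in NPC2, so the day 1 mean rests on 1 array, and it was above background on neither array of the other groups. Foxj2, a forkhead transcription factor gene, read -4.48 and -5.05 in EpiSC, -4.91 and -2.37 in NPC1 and -6.65 and -5.52 in NPC2. Without NPC1 B its day 1 change was -0.14. Siglecf, a sialic acid-binding receptor of eosinophils, read -3.93 and -3.96 in EpiSC, -2.93 and -1.12 in NPC1 and -4.96 and -5.69 in NPC2; its NPC1 values lie above all others in both cultures, unlike those of Foxj2. Hcrtr1, the orexin receptor 1 gene, has a second probe above background on both NPC1 arrays. That probe read -2.32 and -2.59 in NPC1 A and B, with a day 1 change of 0.70 and a day 2 change of -0.73, so the duplicates differed on the first probe by far more than on the second. The results that follow are given for the 53 genes whose duplicates agree unless another number is named.

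**Figure D3:**
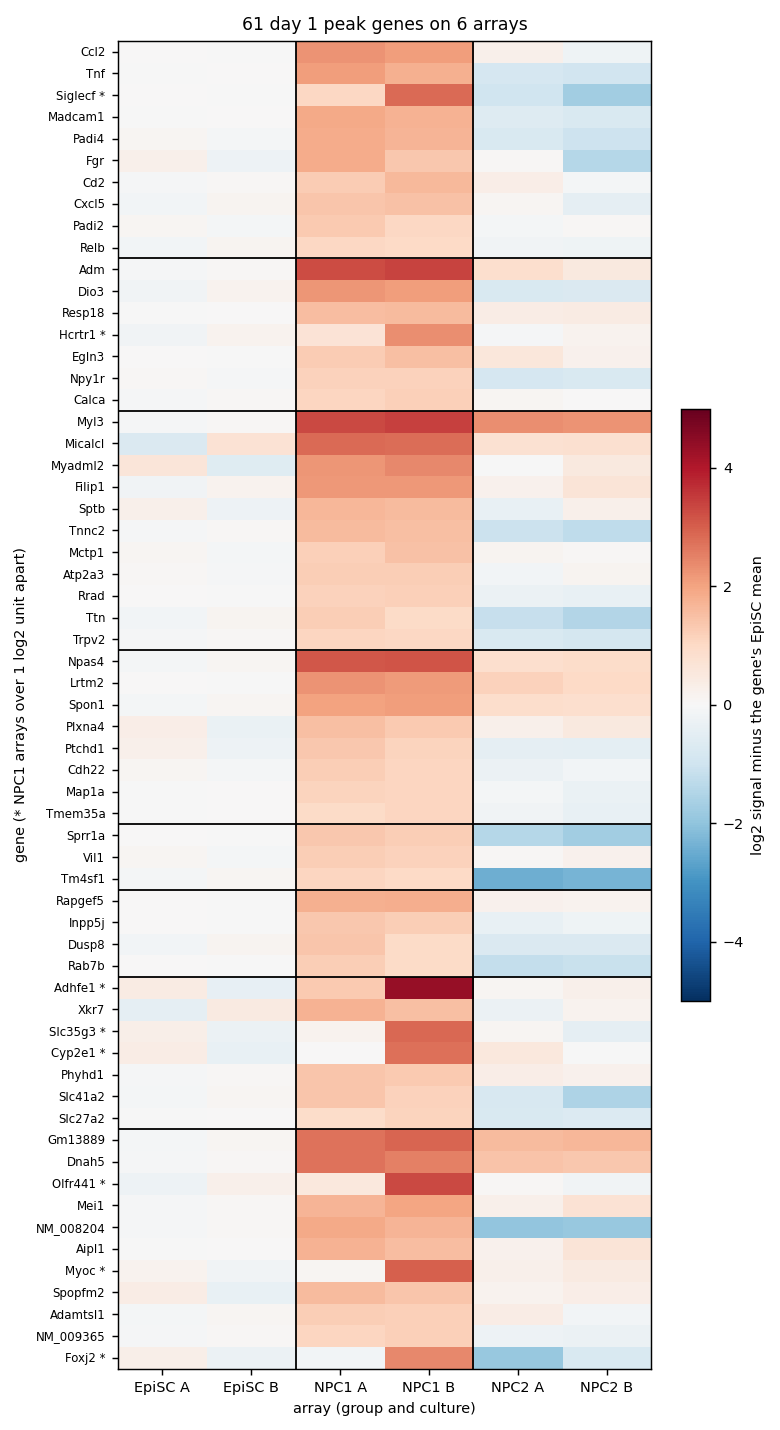
Rows are the 61 genes, ordered by role from immune genes at the top to other genes at the bottom, columns are the 6 arrays, and the colour is the log2 signal minus the gene's EpiSC mean. The NPC1 columns are the warmest for the genes without an asterisk, Tm4sf1 and NM_008204 are the coldest in NPC2, and the 8 genes with an asterisk are warm mainly in NPC1 B.

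Of the 53 genes, 39 were above background on all 6 arrays. On neither EpiSC array were 10 of them above background, on neither NPC2 array 11, and 9 were above background in NPC1 alone: Tnf, Fgr, Cxcl5, Filip1, Micalcl, Myadml2, Mctp1, Dnah5 and Spopfm2. These 9 and Xkr7, which was above background on 1 EpiSC array, entered the test only through the group in which they were high; the other 43 were above background on both arrays of EpiSC or of NPC2. For a group below background the fold was set against the weakest signal that passed as above background on each array. The gene's own signal was used where it was higher. Some signals that did not pass read above that weakest signal, so folds given as at least a value are approximate and no strict lower bounds. For the 53 genes these folds ran from 1.36 to 3.09 for NPC1 over EpiSC and from 1.46 to 4.6 for NPC1 over NPC2.

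The set held 10 inflammatory and immune genes, 9 of them among the 53. Ccl2, a chemokine gene that attracts monocytes, read -4.38 and -4.45 in EpiSC A and B, -2.19 and -2.33 in NPC1 and -4.14 and -4.61 in NPC2. Both NPC1 cultures stood about 2 log2 units above the other 4 (4.45-fold over EpiSC and 4.34-fold over NPC2), and the NPC2 values lay on either side of the EpiSC values. Tnf, which encodes the cytokine TNF, read -6.36 and -6.33 in EpiSC, -4.25 and -4.57 in NPC1 and -7.20 and -7.28 in NPC2. It was above background only in NPC1, at least 1.81-fold over EpiSC and at least 1.95-fold over NPC2. Cxcl5, a chemokine gene that attracts neutrophils, was likewise above background only in NPC1, where it read -4.53 and -4.44. Relb, a subunit of NF-kB, read 0.77 and 1.04 in EpiSC, 1.93 and 1.92 in NPC1 and 0.71 and 0.68 in NPC2. Its day 1 rise was 2.02-fold, and a second Relb probe gave a rise of 1.02 and a fall of -1.32.

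Madcam1, an adhesion molecule that guides lymphocytes into the gut, read -0.14 and -0.13 in EpiSC, 1.77 and 1.59 in NPC1 and -0.78 and -0.91 in NPC2. The EpiSC arrays lay between the high NPC1 and the low NPC2 arrays with no overlap. After 2 days it stood below its starting level (limma, log2 difference -0.71 ± 0.084 SE, adjusted p = 0.00122), and its second probe rose by 1.12 and then changed by -1.41. Padi4 encodes a peptidylarginine deiminase, an enzyme that converts arginine in histones and other proteins to citrulline. It read -1.97 and -2.18 in EpiSC, -0.22 and -0.39 in NPC1 and -2.83 and -3.10 in NPC2, and ended below EpiSC (-0.89 ± 0.13, adjusted p = 0.00242). Padi2, the gene of a second enzyme of the family, read -3.05 and -3.22, -1.83 and -2.11, and -3.25 and -3.07 in the same order. Its NPC2 and EpiSC arrays overlapped, with a difference of -0.022 ± 0.13 that did not pass (adjusted p = 0.887). Padi2 and Padi4 lie 3 genes apart on chromosome 4. Of their neighbours, Padi3 rose by 1.08 on day 1 and differed by -0.42 on day 2 (not passed), the Padi1 differences were 0.16 and -0.37 (neither passed), and Padi6 was above background on no array (0 of 6).

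The remaining immune genes were Cd2, an adhesion molecule of T cells, and Fgr, a Src-family kinase gene of myeloid cells. Cd2 read -4.76 and -4.64 in EpiSC, -3.45 and -3.06 in NPC1 and -4.37 and -4.79 in NPC2, a peak of 2.72-fold over the start. Fgr read -3.99 and -4.50 in NPC1 and was above background in no other group. A list of 11 leukocyte and macrophage marker symbols was set beside these genes. Adgre1 and Emr1 among them name the same gene. Of its 9 genes on the array 7 were tested, 1 was called higher and 1 lower in NPC1 than in EpiSC, and Lyz2 and Tyrobp were above background on no array (0 of 6). The log2 of the summed signal of the list ran from 4.18 to 4.29 in EpiSC, from 4.45 to 4.68 in NPC1 and from 4.51 to 4.62 in NPC2. Most of that sum is the Itgam probe, so it does not stand for the list. Itgam was the gene called higher on day 1 (0.38), and Cd14 the gene called lower (-0.43). The part of such cells in the peak was not tested.

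A list of 24 NF-kB and TNF target genes holds Relb, Ccl2 and Tnf, and 19 of its genes were tested. On day 1, 9 of the 19 were called higher and 2 lower, with a median of 0.24. On day 2, 0 were called higher and 16 lower, with a median of -1.62. Called higher and then lower were 7 of the 19, against 4.36% of all genes tested. The 3 members of the set are among the 7, and the rule fixed their pattern; the other 4 were Nfkb2, Nfkbia, Tnip1 and Cxcl10. Nfkbia, which encodes the inhibitor that holds NF-kB in the cytoplasm, rose by 0.60 and then changed by -1.68. Cxcl10, a chemokine gene, rose by 0.75 and then changed by -3.68, and Nfkb2, a subunit gene, by 0.74 and -1.11. The list did not move as a block: Nfkbie rose by 1.68 with a day 2 difference of 0.040 (not passed), and Bcl3 had a day 1 difference of -0.10 (not passed) and changed by -3.57 on day 2. In NPC2, 14 of the 19 were called lower than in EpiSC and 2 higher; the 14 include Tnf, which was above background in neither group.

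Among peptide hormone, receptor and hormone metabolism genes, the largest peak in the set was that of Adm. Adm encodes adrenomedullin, a vasodilator peptide known to be induced by low oxygen. It read -1.53 and -1.41 in EpiSC, 1.79 and 1.90 in NPC1 and -0.61 and -0.97 in NPC2, which is 9.94-fold over EpiSC and 6.2-fold over NPC2. The NPC2 arrays remained above the EpiSC arrays (0.68 ± 0.13, adjusted p = 0.00724). Egln3, a prolyl hydroxylase that marks hypoxia-inducible factors for breakdown, read -0.61 and -0.66, 0.63 and 0.88, and -0.071 and -0.41 in EpiSC, NPC1 and NPC2. Its NPC2 arrays were both above the EpiSC arrays, but the difference of 0.39 ± 0.14 did not pass (adjusted p = 0.0585). A second Egln3 probe rose by 1.33 and then changed by -0.90.

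Adm and Egln3 belong to a list of 22 glycolysis and hypoxia genes, all tested. On day 1, 11 were called higher and 4 lower (median 0.17), and on day 2, 3 were called higher and 8 lower (median -0.053). Adm and Egln3 are among the 11 and among the 8, and the rule fixed their pattern. Of all genes tested, 21.4% were called higher and 29.4% lower on day 1, and 20.9% higher and 27% lower on day 2. The list divided by the course of its genes. Ankrd37 and Vegfa, the latter a vessel growth factor gene, were called higher and then lower with smaller rises of 0.88 and 0.42. Slc2a1, the glucose transporter gene, rose by 1.72, and its day 2 difference was -0.060 (not passed). Ndrg1 and Car9, also induced by low oxygen in many cells, fell by 1.1 and 0.92 on day 1.

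Dio3 encodes the deiodinase that inactivates thyroid hormones. It read -4.38 and -4.05 in EpiSC, -2.02 and -2.13 in NPC1 and -4.97 and -4.95 in NPC2. The rise was 4.41-fold and the fall 7.38-fold, so the NPC2 arrays lay below both EpiSC arrays (-0.74 ± 0.12, adjusted p = 0.00353). Npy1r, a receptor gene for neuropeptide Y, followed the same course with -2.73 and -2.84, -1.66 and -1.64, and -3.62 and -3.56, and ended lower (-0.80 ± 0.057, adjusted p = 0.000213). Resp18, which encodes a protein of neuroendocrine secretory granules, went the other way after 2 days: it read -4.21 and -4.14, -2.65 and -2.59, and -3.81 and -3.75, and remained 0.39 ± 0.053 above EpiSC (adjusted p = 0.00196).

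Calca encodes calcitonin and the calcitonin gene-related peptide by alternative splicing. The probe that entered it into the set, designed to the transcript NM_001033954, read 2.50 and 2.59 in EpiSC, 3.61 and 3.73 in NPC1 and 2.65 and 2.57 in NPC2. The probe designed to the transcript NM_007587 gave another course, with a day 1 change of -0.28 and a day 2 change of -1.05. By the mean of its probes Calca was called lower in NPC2 than in EpiSC (-0.63, adjusted p = 0.000983), whereas by the first probe alone the difference did not pass. Of the 21 further probes of 19 of the 61 genes, 11 were above background on both NPC1 arrays, and the Calca probe was the only 1 of these that did not follow the peak. The other 10 rose and fell by at least 0.5, and 7 did so by at least 1.

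The set held 11 contractile, calcium and membrane skeleton genes, all among the 53. Myl3, the essential myosin light chain gene of ventricular and slow muscle, read -1.90 and -1.77 in EpiSC, 1.47 and 1.60 in NPC1 and 0.49 and 0.41 in NPC2. It rose 10.3-fold and then fell 2.12-fold on day 2. Its NPC2 arrays were still far above EpiSC (2.29 ± 0.076, adjusted p = 2.45e-05), the largest remaining excess of the set. Tnnc2, the troponin C gene of fast muscle, behaved differently: it read 1.64 and 1.79, 3.29 and 3.24, and 0.66 and 0.47, and ended below EpiSC (-1.16 ± 0.090, adjusted p = 0.000296). Ttn, the gene of the giant sarcomere protein titin, read -3.69 and -3.43, -2.31 and -2.59, and -4.70 and -5.02. It ended lower as well (-1.30 ± 0.17, adjusted p = 0.00159), although the difference was -0.43 and did not pass (adjusted p = 0.182) when the mean of its probes was used. A second Ttn probe, above background in NPC1, rose by 1.51 and then changed by -2.30.

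Rrad, which encodes a small GTPase that restrains calcium channels, read -2.87 and -2.90, -1.75 and -1.68, and -3.17 and -3.24 in EpiSC, NPC1 and NPC2, with a small deficit at the end (-0.32 ± 0.053, adjusted p = 0.00416). Trpv2, a cation channel gene, read 0.15 and 0.24, 1.28 and 1.23, and -0.58 and -0.69 (-0.83 ± 0.062, adjusted p = 0.000258). Atp2a3, the gene of a calcium pump of the endoplasmic reticulum, read -1.07 and -1.22, 0.08 and 0.10, and -1.27 and -0.99, and the NPC2 minus EpiSC difference of 0.013 ± 0.11 did not pass (adjusted p = 0.923). Sptb, a spectrin gene of the membrane skeleton, peaked 3.08-fold over EpiSC, with NPC2 and EpiSC arrays that overlapped. Filip1 was at least 2.58-fold over EpiSC and at least 2.78-fold over NPC2, and Micalcl at least 2.47-fold and at least 2.66-fold. Mctp1 and Myadml2 were also above background in NPC1 alone.

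Muscle genes were examined further with a list of 22 genes chosen after these values were seen. Of these, 12 were tested, 5 were called higher and 3 lower on day 1, and 2 were called higher and 2 lower on day 2. Myod1, Myog and Myf5, regulators that define skeletal muscle, were above background on no array (0 of 6). The 3 genes called lower on day 1 were Tnnt2 (-1.28), Tnnt3 (-0.99) and Myh3 (-0.28). Myh6 had a day 1 difference of 0.025 (not passed) and changed by -2.27 on day 2. Tnni2, the troponin I gene of fast muscle, rose by 1.54 and then changed by -0.83, short of the fall that the rule requires. Myl4, the atrial light chain gene, rose by 3.03 and by a further 0.68, and Myh7 rose by 2.02, with a day 2 difference of -0.12 (not passed). In a list of 20 SRF and actin cytoskeleton genes, 19 were found by symbol and 18 were tested. On day 1, 6 were called higher and 4 lower (median 0.10), and on day 2, 2 were called higher and 15 lower (median -0.65). Tgfb1i1 was not found by symbol, and genes kept by accession could not be matched to the list. Actc1, Cnn1 and Tagln, which met both thresholds and were left out by name, are not in the list.

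The 8 neuronal and adhesion genes all had agreeing duplicates and were above background on both arrays of EpiSC or of NPC2. Npas4, a transcription factor gene induced by neuronal activity, read -3.68 and -3.46 in EpiSC, -0.46 and -0.43 in NPC1 and -2.74 and -2.66 in NPC2. It rose 8.73-fold, fell 4.78-fold and stayed above EpiSC (0.87 ± 0.085, adjusted p = 0.000631). Spon1, the gene of the extracellular protein F-spondin, read -2.92 and -2.74, -0.84 and -0.74, and -1.93 and -1.98 (0.87 ± 0.079, adjusted p = 0.000484). Lrtm2, a gene of a leucine-rich repeat membrane protein, read -4.57 and -4.59, -2.33 and -2.45, and -3.45 and -3.57 (1.07 ± 0.069, adjusted p = 0.000155). In these 3 genes the NPC2 arrays lay between those of the other groups.

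Of the other neuronal and adhesion genes, 4 had NPC2 values whose difference from EpiSC did not pass, and 1 was called lower. Map1a, a microtubule-associated protein gene, read -1.10 and -1.02, 0.057 and 0.011, and -1.16 and -1.40, and Cdh22, a cadherin gene, 0.50 and 0.33, 1.63 and 1.49, and 0.11 and 0.27; neither difference between NPC2 and EpiSC passed. Plxna4, a receptor gene for semaphorins, read -3.76 and -3.96 in NPC1, and its EpiSC level is uncertain, since 1 of the 2 EpiSC arrays was not above background. Ptchd1 peaked at -2.09 and -2.32 and ended -0.48 ± 0.18 from EpiSC, which did not pass (adjusted p = 0.0644). Tmem35a, whose product helps nicotinic receptors to assemble, read -0.65 and -0.63, 0.31 and 0.42, and -0.81 and -1.02. Its end value passed narrowly (-0.27 ± 0.087, adjusted p = 0.0395), and the call was lost on leaving out any array other than NPC2 A, with adjusted p from 0.056 to 0.137. It was also lost with no filter on dim probes (adjusted p = 0.0767) and with the authors' deposited value table, where the difference was -0.048 (adjusted p = 0.623).

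Of the 12 markers in the neuron list, all tested, 5 were called higher and 4 lower on day 1, and 2 higher and 4 lower on day 2. Gap43, a growth cone gene, and Neurod1, a neuronal transcription factor gene, were called higher and then lower, by 1.25 and -0.62 and by 0.64 and -1.40. Nefl, a neurofilament gene, changed by -2.90 on day 1.

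The 3 epithelial genes were Sprr1a, Tm4sf1 and Vil1. Sprr1a, which encodes a precursor of the cornified envelope of skin, read -2.74 and -2.74 in EpiSC, -1.39 and -1.51 in NPC1 and -4.14 and -4.49 in NPC2. Its fall of 7.31-fold exceeded its rise of 2.44-fold, and NPC2 lay well below EpiSC (-1.58 ± 0.13, adjusted p = 0.000309). Tm4sf1, a membrane protein gene of the tetraspanin-like family, read -4.33 and -4.10, -3.14 and -3.21, and -6.67 and -6.54. It was not well above background on either NPC2 array, so its level there is uncertain. Against the weakest passing signals it was at least 4.6-fold below NPC1 and at least 2.23-fold below EpiSC. The limma test used the measured signals instead (-2.39 ± 0.096, adjusted p = 3.88e-05). Vil1, the gene of the microvillus protein villin, read -3.59 and -3.75, -2.44 and -2.53, and -3.63 and -3.46, with overlapping start and end. Of 12 surface ectoderm and epidermis markers, all tested, 0 were called higher and 5 lower on day 1. In a list of 9 cornified envelope genes chosen after these values were seen, 7 were on the array, 5 of them above background on no array, and Lor, the gene of loricrin, changed by -0.81 on day 1.

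Rab7b and Slc41a2 mark the set as it was defined. Rab7b encodes a small GTPase of transport between late endosomes and the Golgi. It read -2.59 and -2.61 in EpiSC, -1.37 and -1.63 in NPC1 and -3.78 and -3.70 in NPC2, so it rose 2.14-fold, fell 4.71-fold and ended lower (-1.14 ± 0.097, adjusted p = 0.000388). After scaling by the median of each array its day 1 rise was 0.999, under the threshold of 1, which takes it out of the set. Slc41a2, a magnesium transporter gene, read -4.26 and -4.07, -2.79 and -3.01, and -4.95 and -5.72, and was above background on 1 of the 2 NPC2 arrays. It also ended lower (-1.17 ± 0.27, adjusted p = 0.0129), and without EpiSC B the call was lost (-1.07, adjusted p = 0.0644).

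The lists around these genes moved in both directions. Rab7b and Slc41a2 are each counted in their own list, and the rule fixed their pattern. Of 20 genes of late endosomes, lysosomes and their Rab proteins, all tested, 5 were called higher and 5 lower on day 1, and 6 higher and 6 lower on day 2, with medians of -0.072 and -0.026. Rab7, the close relative of Rab7b, changed by -0.23 and -0.27. Rab20 rose by 0.41 and then changed by -1.77. Of 18 magnesium transport genes 16 were tested; 4 were called higher and 5 lower on day 1, and 2 higher and 4 lower on day 2. Slc41a1 and Slc41a3, the other members of the Slc41 family, had day 1 differences of 0.0022 (not passed) and 0.30, and neither passed on day 2.

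The other signalling genes were Rapgef5, Dusp8 and Inpp5j. Rapgef5, an activator of Rap GTPases, read 0.48 and 0.47, 2.25 and 2.31, and 0.69 and 0.66, a rise of 3.49-fold with duplicates close together in all groups. The residue after 2 days was small (0.20 ± 0.046, adjusted p = 0.0134), and the call was lost without EpiSC A, EpiSC B, NPC2 A or NPC2 B (adjusted p from 0.050 to 0.076) and with median scaling (0.12, adjusted p = 0.102). Dusp8, a phosphatase that inactivates stress-activated MAP kinases, read -2.14 and -1.91, -0.64 and -1.06, and -2.74 and -2.76, and ended lower (-0.73 ± 0.16, adjusted p = 0.0114). Its second probe rose by 1.01 and then changed by -1.76. Inpp5j, an inositol polyphosphate phosphatase gene, ended slightly lower (-0.29 ± 0.082, adjusted p = 0.0269). Neither list of the ERK pathway held a member of the set. Of the ERK immediate early genes 18 were tested, with 5 called higher and 7 lower on day 1 and 1 higher and 14 lower on day 2, and 4 were called higher and then lower. Of 17 FGF and ERK feedback genes, 2 were called higher and 15 lower on day 1.

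Among transporters and metabolic enzymes, Slc27a2 and Phyhd1 were bright on all arrays. Slc27a2, which takes up and activates very long chain fatty acids, read 1.49 and 1.5 in EpiSC, 2.41 and 2.61 in NPC1 and 0.72 and 0.81 in NPC2, and ended lower (-0.73 ± 0.079, adjusted p = 0.000927). Phyhd1, a dioxygenase gene, read 0.80 and 0.91, 2.24 and 2.17, and 1.20 and 1.07, and kept a small excess (0.28 ± 0.070, adjusted p = 0.0173). Xkr7 peaked at -3.56 and -3.77 and was above background on 1 EpiSC array and on no NPC2 array (0 of 2). Slc35g3 and Cyp2e1, a cytochrome P450 gene, were among the 8 genes with a higher NPC1 value in B than in A.

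Genes that kept an accession could not be matched to a role or a gene list. Among these and the genes without a shared role, NM_008204 had the deepest fall of the set. It read -1.99 and -1.85 in EpiSC, -0.02 and -0.20 in NPC1 and -3.89 and -3.80 in NPC2, which is 3.51-fold up, 13.3-fold down and 3.80-fold below EpiSC at the end (-1.92 ± 0.090, adjusted p = 5.94e-05). Gm13889 read -2.65 and -2.43, 0.18 and 0.35, and -0.96 and -0.86, a rise of 7.0-fold, with NPC2 still 3.09-fold over EpiSC (1.63 ± 0.10, adjusted p = 0.000154). NM_009365, also without a symbol in the table, read 1.27 and 1.38, 2.40 and 2.53, and 1.07 and 1.03 (-0.28 ± 0.070, adjusted p = 0.0186). Mei1, a meiosis gene, peaked 3.56-fold over EpiSC and ended 0.50 ± 0.17 above it, which did not pass (adjusted p = 0.0524). Aipl1, the gene of a photoreceptor chaperone, read 3.09-fold over EpiSC, where it was not above background, so this fold is uncertain. Dnah5, a dynein heavy chain gene of cilia, and Spopfm2 were above background in NPC1 alone, and Adamtsl1, a gene of the extracellular matrix, peaked 2.31-fold over EpiSC with overlapping start and end.

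The tested comparison asks where the genes stood after 2 days against the start. Over all 61 genes, limma called 10 higher and 19 lower in NPC2 than in EpiSC, and 32 did not pass. Of all genes tested, 28.3% were called higher and 41.1% lower. Among the genes called were Dnah5 and Tnf, which were above background on no EpiSC and no NPC2 array and have no readable direction. Among the 43 of the 53 genes that were above background on both arrays of either group, 9 (20.9%) were higher, 18 (41.9%) were lower and 16 did not pass. The share called lower lies near that of all genes. The median difference over the 61 genes was -0.053, and that of all genes tested -0.10. The split depends on the scaling: with the values as scaled in the authors' deposited table, 16 of the 61 were called higher and 15 lower, so that 51.6% of the calls were rises, against 34.5% above.

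**Figure D4:**
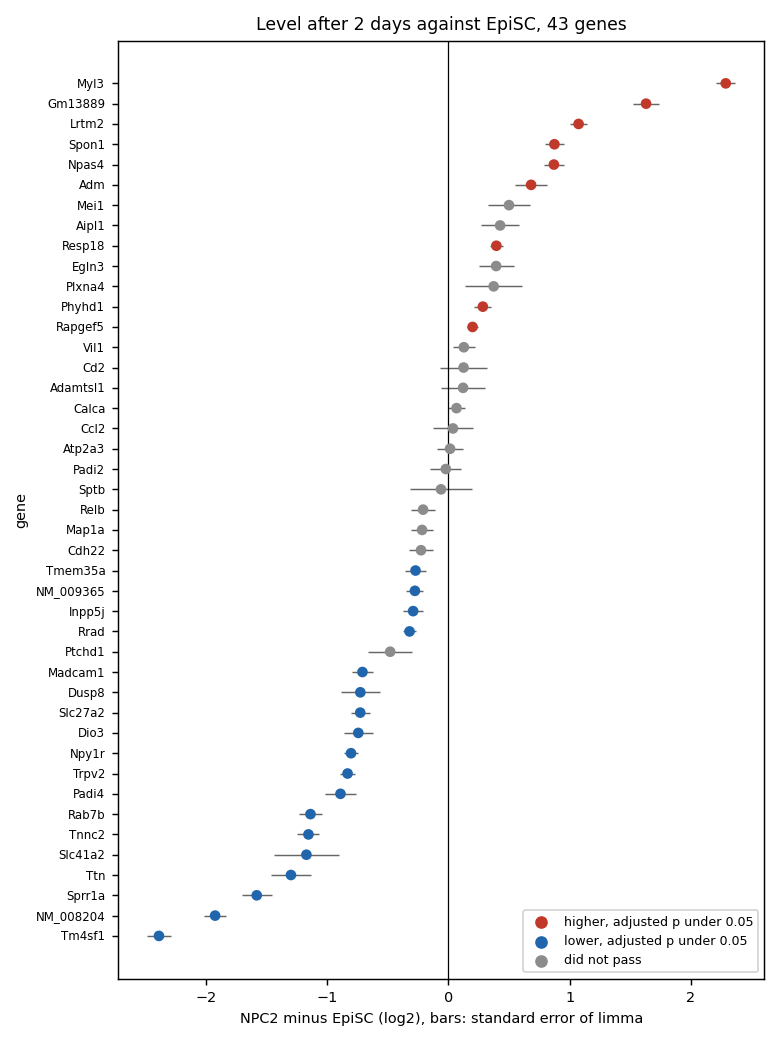
The x axis gives NPC2 minus EpiSC (log2) with the limma standard error as a bar, for the 43 genes with agreeing duplicates and signal above background on both arrays of EpiSC or of NPC2; red and blue points passed the test as higher and lower, and grey points did not pass. Myl3 stands highest at 2.29, and Tm4sf1, NM_008204 and Sprr1a are lowest; Tm4sf1 is drawn at its measured signal, which was not above background in NPC2.

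The genes that stayed above EpiSC were Myl3, Gm13889, Lrtm2, Spon1, Npas4, Adm, Resp18, Phyhd1 and Rapgef5. They included 3 of the 8 neuronal and adhesion genes and none (0) of the 6 inflammatory genes among the 43. Of all genes tested 28.3% were called higher, and counts this small do not set the roles apart. The genes that dropped below EpiSC were Tm4sf1, NM_008204, Sprr1a, Ttn, Slc41a2, Tnnc2, Rab7b, Padi4, Trpv2, Npy1r, Dio3, Slc27a2, Dusp8, Madcam1, Rrad, Inpp5j, NM_009365 and Tmem35a. They spread over every role, with 4 contractile and calcium genes, 2 epithelial genes and 2 immune genes among them, while 41.1% of all genes tested were called lower. The 16 genes that did not pass had differences between -0.48 and 0.50, and with 2 arrays a group this does not show that they returned to the same level.

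In the genome the genes were scattered. Of the 61, 59 could be placed in the RefSeq gene order, on 17 chromosomes. Of 81 tested immediate neighbours of the 61 genes, 1 met both thresholds itself (Ltb, which lies beside Tnf on chromosome 17 and was left out by name), and the median day 1 change of these neighbours was -0.043. Cxcl5 lies 5 genes from Cxcl1, left out by name, on chromosome 5.

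Promoter windows, 250 bases before to 50 bases after each annotated start in RefSeq (GRCm38.p6), were found for 47 of the 61 genes, with 59 windows in all. The 14 genes without a window were Adamtsl1, Adhfe1, Ccl2, Cd2, Cxcl5, Gm13889, Inpp5j, NM_008204, NM_009365, Plxna4, Rab7b, Relb, Rrad and Spon1. Each motif was searched on both strands. The NF-kB motif (GGGRNNYYCC) stood in 13 of the 59 windows (22.0%), against 8.46% of all 32851 windows. The CArG box (CCWWWWWWGG) stood in 3 (5.08%), against 1.63%. In the patterns R is A or G, Y is C or T, W is A or T, and N is any base. The shares are a description of letters, and windows of 1 gene overlap. The windows with the NF-kB motif belonged to Aipl1, Cdh22, Dio3, Filip1, Foxj2, Madcam1, Map1a, Npas4, Padi2, Ptchd1, Tm4sf1, Tnnc2 and Trpv2, and those with the CArG box to Filip1, Myl3 and Vil1. Madcam1 and Padi2 are immune genes of the set, while the windows of Tnf, Padi4, Fgr and Siglecf held no match to the NF-kB motif. The immune genes Ccl2, Cxcl5, Cd2 and Relb had no window. Of all 47 genes with a window, 13 held the motif, so it does not set the immune genes apart. Filip1 and Myl3 are among its contractile and membrane skeleton genes, and Vil1 among its epithelial genes.

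Other motifs were about as frequent as in all windows or rarer. The AP-1 motif (TGANTCA) stood in 10.2% of the windows against 7.81%, the TATA box (TATAAA) in 15.3% against 13.6%, the CRE (TGACGTCA) in 1.69% against 1.79%, TEAD (GGAATG) in 11.9% against 14.7% and RBPJ (TGGGAA) in 23.7% against 25.6%. The E-box (CACGTG) stood in 1.69% against 7.15%, the SOX motif (CATTGTN) in 3.39% against 12.5%, the HRE (ACGTGC) in 1.69% against 5.91%, ETS (CCGGAAGT) in 1.69% against 3.89%, the octamer (ATGCAAAT) in 1.69% against 1.74% and the amino acid response element CARE (TGATGNAAN) in 3.39% against 3.95%. The median GC content was 54.3% in the windows of the set and 52.7% in all windows. The shown window of Dusp8 holds the CRE at 2 places, that of Sprr1a the AP-1 motif at 2 places, and that of Madcam1 the NF-kB motif at 2 places.

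**Figure D5:**
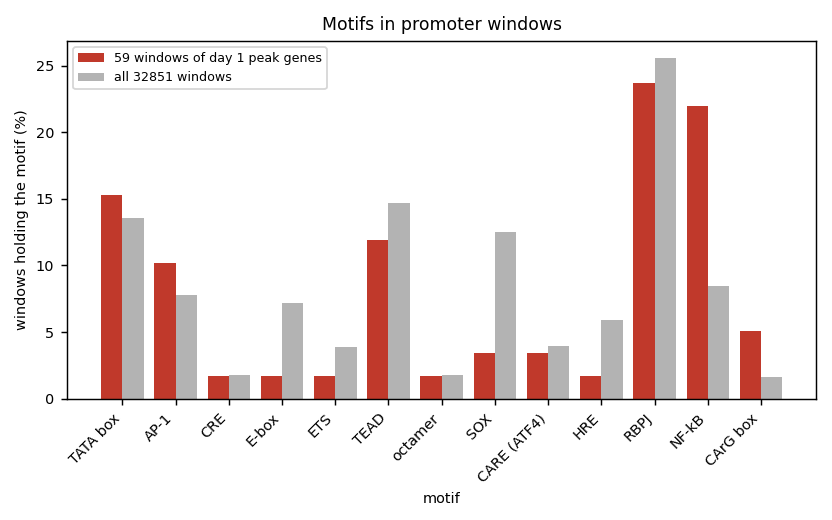
The bars give the percentage of promoter windows that hold each motif on either strand, in red for the 59 windows of the set and in grey for all 32851 windows. The NF-kB bar of the set, at 22.0%, stands above the grey bar at 8.46%, and the SOX bar, at 3.39%, below the grey bar at 12.5%.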

How the data were processed

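Expression in 6 cultures of 3 groups was read on Agilent single-colour arrays. Agilent Feature Extraction (10.10.1.1 per the file headers) gave the deposited processed intensity of each spot, background-subtracted and detrended within the array but not normalized between arrays, with flags for signal well above background. The deposited value table holds the same intensity times a constant per array (2.10 to 2.41); its scale is linear, and the origin of the constant is not stated in the sources used here. Columns without a matching sample numbered 0.

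Control and outlier spots were left out, spots of a probe averaged, and log2 taken minus the array's 75th percentile. Of 26414 probes with an NM accession, 25918 were named through RefSeq (GRCm38.p6, for names, gene order and promoters), and 496 kept their accession. A gene was read by its probe with the highest mean, and was tested if that probe was well above background on both arrays of a group. All 6 arrays entered 1 fit across all genes (lmFit and eBayes of limma 3.58.1 under R 4.3.3, two-sided, 3 residual and 1.91 prior degrees of freedom) with Benjamini-Hochberg adjustment at 0.05, checked on simulated data. A gene was called where its adjusted p passed. Errors are limma's standard errors.

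The members, gene lists, roles and motifs were chosen with earlier results of these data known. Named genes are Rab7b, Slc41a2, the 20 largest peaks, the 6 highest and 6 lowest day 2 differences, genes nearest the thresholds and list members; others are named once by function. The alternatives were other scalings, background corrections, probe choices, filters and thresholds, arrays left out in turn, and the culture letter as a block. Nothing states that a letter pairs cultures across groups. Deviations of same-lettered arrays from their group means correlated at 0.001, 0.002 and -0.048, which cannot settle whether cultures were handled in pairs.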

Additional observations from a re-analysis of the deposited data

How the results depend on the processing

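The number of genes past both thresholds was 61 and moved with the cut: 109 at 0.8, 20 at 1.5, 173 with no filter on dim probes, and 11 with normexp background correction at an offset of 50. An offset of 1, tried after seeing the data, gave 36, all shared with the 61. Leaving out single arrays gave 63 to 154 genes; the high counts came without NPC1 A (154) and without NPC1 B (104). In the same runs the genes called higher in NPC2 than EpiSC numbered 10 to 11, those lower 15 to 19, and the median difference ran from -0.135 to 0.019. With the deposited value table, whose scaling moved the median NPC2 minus EpiSC difference of all genes from -0.10 to 0.12, the set held 65 genes (54 shared), 16 of the 61 were called higher, and the median was 0.169. Median scaling gave -0.18 for all genes, and quantile normalization -0.002. With the culture letter as a replicate block, 61 genes met the thresholds, 12 were called higher and 18 lower, with a median of -0.053, and Tmem35a was no longer called (adjusted p = 0.0683, against 0.0767 with no filter on dim probes and 0.623 with the value table). The letters name cultures and give no sign of pairing.

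Directions that turned were those of NPC2 minus EpiSC differences that did not pass above and of the day 1 change of Foxj2, and the cause was not tested. Farthest from 0 among these NPC2 minus EpiSC differences was that of Relb (-0.21), which some other settings called lower. Calca read -0.017 with median scaling; with the mean of its probes it read -0.628, far from 0, and was called lower (adjusted p = 0.000983). Ccl2 read -0.046 with median scaling, -0.038 with quantile normalization, -0.025 with normexp and, with single arrays left out, from -0.199 (without NPC2 A) to 0.273. Vil1 read -0.038 with normexp. The value table gave 0.014 for Relb, 0.162 for Sptb and 0.169 for Xkr7. With single arrays left out, Sptb ran from -0.376 to 0.253 (above 0 without EpiSC A, at 0.174, and without NPC2 A) and Xkr7 from -0.489 to 0.383 (above 0 without NPC2 A, at 0.172, and without EpiSC B). The day 1 change of Foxj2 ran from -0.144 without NPC1 B to 2.395 without NPC1 A. Some calls began under another setting: Egln3 with normexp (adjusted p = 0.00245), the value table (0.0126), all 6 arrays above background (0.0404) and without NPC2 B (0.0254); Relb with median scaling (0.0444), normexp (0.0435), the mean of its probes (0.0219) and without EpiSC A (0.0132); Calca as higher with quantile normalization (0.0258) and the value table (0.0107), against the call as lower with the mean of its probes; Vil1 with the value table (0.0272); and Plxna4 without EpiSC A (0.0194).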

Other observations

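Lists that hold no gene of the set also contained genes called higher on day 1 and then lower on day 2, a course seen in 4.36% of all genes tested. In the amino acid stress list, 18 genes were tested; 6 were called higher and 3 lower on day 1, 1 higher and 16 lower on day 2, and 5 took this course. Among the 5 were Ddit4, an inhibitor of mTOR signalling, which rose by 1.30 and then changed by -0.55, and Ddit3, a stress transcription factor gene, with 0.47 and -1.0. Of 18 tested p53 targets, 6 were called higher and 5 lower on day 1, 2 higher and 12 lower on day 2, and 4 took this course. Of 19 tested genes of the interferon response and antigen presentation, 4 were called higher and 13 lower on day 1, and 3 took this course. None (0) of the tested YAP and TEAD targets (14), TGF-beta and activin targets (14), BMP targets (12), Wnt targets (14) and retinoic acid response genes (13) did, and 1 of 8 tested Notch targets did.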
